A study of Homo sapiens with 18 samples.

Results

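The cytosolic ribosomal protein genes encode the proteins that, with ribosomal RNA, make up the small and large subunits of the ribosome. Members were the genes annotated as protein-coding in GENCODE release 29 whose symbol is RPL or RPS followed by a number, with or without a final A or X, together with RPSA, RPLP0, RPLP1, RPLP2 and FAU. This gave 78 of the 58051 gene identifiers in the count tables, 32 of the small subunit (FAU included) and 46 of the large subunit. RNA was measured in KBM7, a human chronic myelogenous leukaemia line, after 5 h with the solvent DMSO, with THZ531 at 600 nM, or with dCeMM-1, dCeMM-2, dCeMM-3 or dCeMM-4, each at 10 times its EC50. Each of these 6 groups had 3 libraries of poly-A enriched RNA, to which synthetic ERCC and SIRV spike-in RNA had been added. As background, the splicing factor RBM39 is the protein lost under dCeMM-1, cyclin K is the one lost under the other dCeMM compounds, and THZ531 blocks the partner kinases of cyclin K, CDK12 and CDK13. All groups are a single cell line at a single time. Whether replicate libraries stem from different cultures is not stated in the sources used here, and p-values then measure only the spread between these libraries, which may be technical.

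Ribosomal protein mRNAs are among the most abundant and most stable messages of a growing cell. Their genes are mostly short and transcribed at high rates. The proteins are made in matched amounts because each ribosome takes up each protein in a fixed ratio. Most carry a 5′ terminal oligopyrimidine (TOP) tract, a C at the first base followed by an unbroken run of C and T, through which translation of these mRNAs is controlled by the growth-regulating kinase mTOR and the RNA-binding protein LARP1. Many also have numerous processed pseudogenes, intronless copies in the genome whose sequence resembles the mRNA.

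The first bases of the genes are shown here because they are a feature that the choice of members did not use and that most of them share. The windows come from RefSeq on GRCh38.p14, run 5′ to 3′ on the gene's own strand, and hold 10 bases before the annotated start and 18 from it; capitals mark the C at the start and the unbroken run of C and T that it opens. Among the members with the largest rises described below were RPL13A (chr19:49487598-49487625, plus strand), RPL22 (chr1:6199578-6199605, minus strand), RPL39 (chrX:119791613-119791640, minus strand) and RPL12 (chr9:127451389-127451416, minus strand).
RPL13A: aaacctcctcCTTTTCCaagcggctgcc
RPL22: cgctcacctcCCTTTCTaactccgctgc
RPL39: ccgccagcttCCCTCCTCTTCCTTTCTC
RPL12: cgatttccggCCTCTCggctttcggctc
RPS6 (chr9:19380219-19380246, minus strand), RPLP1 (chr15:69452808-69452835, plus strand) and RPL11 (chr1:23691796-23691823, plus strand) are abundant members whose values are given in every library below.
RPS6: gaagttggccCTCTTTTCCgtggcgcct
RPLP1: ggcgcgagagCCCCTTTCCTCagctgcc
RPL11: gctccgctttCTCTTCCTgctctccatc
RPS26 (chr12:56041908-56041935, plus strand) and RPS28 (chr19:8321486-8321513, plus strand), the members with the lowest counts, have no C at the annotated start and so no capitals.
RPS26: acataacctcgattttcttccgccatcc
RPS28: gaagcacgtgactcctctccgccagacc
The last windows are those of RPL22L1 (chr3:170870178-170870205, minus strand), RPS27L (chr15:63157460-63157487, minus strand) and RPL7L1 (chr6:42879606-42879633, plus strand), paralogues of members that are not themselves members and that moved apart from one another.
RPL22L1: ccgtagcttcCTCTCTgctctcgcggcc
RPS27L: gatgccgagcgcagatcgcttgcagctt
RPL7L1: gtgcggcgccgtagctaggagcggacgc

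Of the 63 members with a RefSeq start in the table used, 50 (79.4%) had a C at a start and 47 (74.6%) had a C followed by at least 4 bases that were each C or T. Among 14895 protein-coding genes with an entry, 15% had a C at a start and 6.36% had such a run. The run was read on the gene's own strand only, at any of a gene's annotated starts; counted per start, 60.3% of 78 starts of members and 4.6% of 20998 starts of protein-coding genes held it. The run at RPL39 is 19 bases long and continues past the window, that at RPLP1 is 11 bases and that at RPL13A 7 bases. An annotated start can differ from the base that is used in these cells, which the data do not show.

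Counts assigned to genes ranged from 4598576 to 17943571 per library, lowest in DMSO replicate 3, and all 78 members passed the filter on low counts, among 15055 genes tested. All 12 markers of a myeloid leukaemia line were detected, with a summed level of 2070 to 2200 CPM (TMM-scaled counts per 1e6 of library size) in DMSO and of 941 to 1120 CPM over the libraries of dCeMM-2, dCeMM-3 and THZ531. Of the markers of other cell types, KRT5 (epithelial) and DCN (fibroblast) were at 0, CD3E (T cell) had 1.21 to 4.46 CPM, and CD3D (T cell) and PECAM1 (endothelial) had 55.3 to 167 and 16.3 to 49 CPM. The summed T cell markers were 63.4 to 69 CPM in DMSO and 133 to 148, 136 to 171 and 137 to 150 CPM with dCeMM-2, dCeMM-3 and THZ531. These sums are almost wholly CD3D, as CD3E stayed low and CD8A, the other marker summed, had at most 0.213 CPM. The part of these markers in the results was not tested.

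The part of gene counts that fell on ribosomal protein genes was 1.03 times that of DMSO after dCeMM-1, 1.21 times after dCeMM-4, and 2.06, 2.17 and 2.13 times after dCeMM-2, dCeMM-3 and THZ531. The 3 DMSO libraries had 6.82%, 6.64% and 6.45% of their gene counts in these 78 genes, and the dCeMM-1 libraries 6.96%, 6.85% and 6.61%. With dCeMM-4 the shares were 8.09%, 8.15% and 7.9%. With dCeMM-2 they were 13.3%, 13.4% and 14.3%, with dCeMM-3 14.7%, 15% and 13.6%, and with THZ531 13.7%, 14.3% and 14.4%. All libraries of these 4 groups lay above all DMSO libraries, and the dCeMM-1 libraries overlapped with them. The group means were 6.64% ± 0.186 in DMSO, 6.81% ± 0.179 with dCeMM-1 (exact two-sided permutation p = 0.3), 8.05% ± 0.129 with dCeMM-4, 13.7% ± 0.532 for dCeMM-2, 14.4% ± 0.759 for dCeMM-3 and 14.1% ± 0.371 for THZ531 (n = 3, SD; exact permutation p = 0.1 for each of the last 4, the smallest that 3 libraries against 3 allow). Mitochondrially encoded genes, which took 4.58% to 14.9% of gene counts, touch this share; with them left out of the denominator the means were 7%, 7.19%, 8.57%, 14.7%, 16.6% and 15.7% in the same order.

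**Figure D1:**
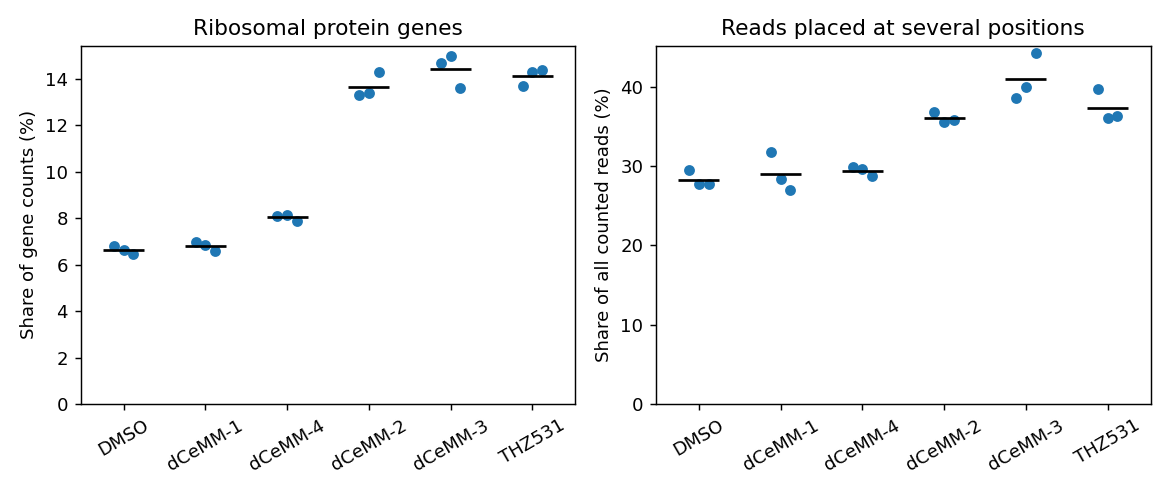
Share of gene counts held by the 78 ribosomal protein genes (left, %) and share of all counted reads that were placed at several positions and left out of the gene counts (right, %), by group. Each point is a library and each bar the mean of 3; the ribosomal protein share lies between 6.45% and 6.96% in DMSO and dCeMM-1 and between 13.3% and 15% with dCeMM-2, dCeMM-3 and THZ531, and the share of reads left out is also higher in those 3 groups.

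Reads that could come from several places in the genome were also a larger share with dCeMM-2, dCeMM-3 and THZ531. With dCeMM-4, where the ribosomal protein share rose too, the share of such reads overlapped with DMSO (exact permutation p = 0.2). These reads were left out of the gene counts. They made up 28.3% ± 1.03 of all counted reads in DMSO, 29.1% ± 2.48 with dCeMM-1 and 29.4% ± 0.658 with dCeMM-4 (SD, n = 3). They made up 36.0% ± 0.649 under dCeMM-2, 41.0% ± 2.97 under dCeMM-3 and 37.4% ± 2.05 under THZ531. How many of them came from ribosomal protein mRNA was not tested. Among the dCeMM-3 libraries, replicate 3 had the largest share of such reads (44.3%) and the smallest ribosomal protein share (13.6%). Reads assigned to the annotated ribosomal protein pseudogenes were few, 0.0515% ± 0.00168 of gene counts in DMSO against 0.106% ± 0.005, 0.11% ± 0.00569 and 0.112% ± 0.00376 with dCeMM-2, dCeMM-3 and THZ531. The share of 50-base stretches of a member's mRNA that occur in no other gene or pseudogene ranged from 9.68% in RPL17 to 99.8%, so the counts of members differ in how complete they are.

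Levels in DMSO, given as CPM per kb of transcript so that genes can be compared, ran from 3.11 ± 0.59 in RPS28 to 3930 ± 349 in RPS3, which lines the mRNA entry channel (SD, n = 3). RPL30 and RPS20 followed RPS3 at 3390 ± 230 and 2620 ± 199, and RPS26, RPL7 and RPL21 were the next lowest at 6.98 ± 1.11, 9.22 ± 0.608 and 18.9 ± 0.252. The transcript length is that of the gene model used and may differ from the one made in these cells. For RPL37 the model is 7686 bases long, so that 944 CPM in DMSO became 123 CPM per kb. The members at the low end have many near-identical copies or overlapping neighbours. RPL7 has 61 and RPL21 66 annotated pseudogenes and 33.8% and 37.3% of 50-base stretches of their own, RPS26 has 30 pseudogenes and lies opposite AC034102.3, and RPS28 lies opposite NDUFA7, KANK3 and AC010323.1. RPS10, RPL17 and RPL36A also share exons with the readthrough genes RPS10-NUDT3, RPL17-C18orf32 and RPL36A-HNRNPH2. A level is therefore that of the reads that could be assigned, and levels of these members should be read as uncertain.

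Relative to the other genes, nearly all ribosomal protein mRNAs were higher after dCeMM-2, dCeMM-3 and THZ531, by close to the same amount within a treatment. On the TMM scale, which keeps the centre of all genes near a log2 fold change of 0, dCeMM-2 raised 77 of 78 members and lowered 0, while 37.1% of all genes tested were higher and 41.2% lower. The median log2 fold change of the members was 1.31, against -0.02 over all genes tested. With dCeMM-3 all 78 were higher and 0 lower (35.9% and 45.1% of all genes), with a median of 1.34 against -0.15, and with THZ531 77 were higher and 0 lower (35.8% and 43.7% of all genes), with a median of 1.38 against -0.10. RPS26 was the member that did not pass with dCeMM-2 and THZ531. At least 2-fold rises were seen in 72, 72 and 74 members. The share of all genes at that size was not computed. The 12254 protein-coding genes tested that are not members had upper quartiles of 0.58, 0.55 and 0.51 on the log2 scale. On the spike-in scale, described further on, the members were lower and not higher. The SD of log2 fold changes over the members was 0.19, 0.19 and 0.23, against 1.33, 1.52 and 1.40 over all genes tested. These 3 comparisons share their DMSO libraries, so likeness between them is not an independent finding.

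**Figure D2:**
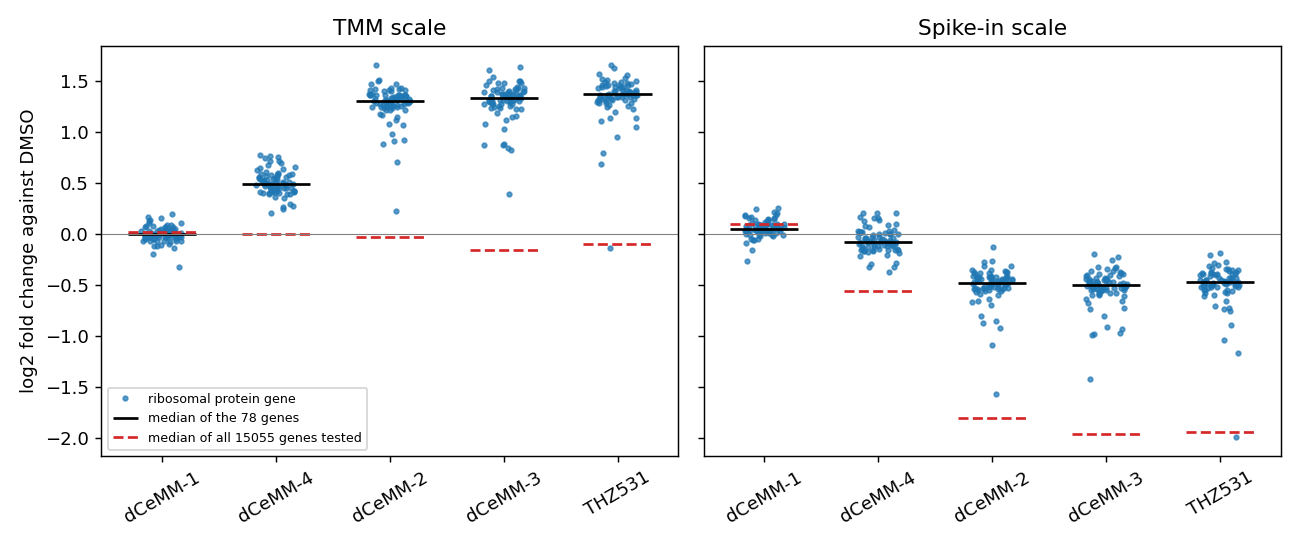
Log2 fold changes against DMSO of the 78 ribosomal protein genes (points) on the TMM scale (left) and on the spike-in scale (right), with the median of the members (black bar) and of all 15055 genes tested (red dashes). On the TMM scale the members lie above the median of all genes with dCeMM-4, dCeMM-2, dCeMM-3 and THZ531, with RPS26 apart; on the spike-in scale they lie below 0 with dCeMM-2, dCeMM-3 and THZ531, but less far than most genes.

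In the small subunit, 31 of 32 genes rose on the TMM scale with dCeMM-2 (median 1.32), 32 of 32 with dCeMM-3 (1.32) and 31 of 32 with THZ531 (1.39). RPS6, the substrate after which the ribosomal S6 kinases are named, had 2470, 2240 and 2190 CPM in DMSO. It had 5420, 5510 and 5690 CPM with dCeMM-2, 5380, 5980 and 5360 CPM with dCeMM-3, and 6200, 5600 and 5620 CPM with THZ531. All 9 treated libraries lay above the DMSO libraries, with log2 fold changes of 1.27, 1.28 and 1.34 (SE 0.06 each, adjusted p = 9.01e-21, 3.55e-21 and 1.48e-21). RPS14, whose loss is known from the 5q- syndrome, changed by 1.37, 1.41 and 1.35, and RPS19, the gene most often mutated in Diamond-Blackfan anaemia, by 1.33, 1.32 and 1.35 in the same order. RPSA, which is also known as a laminin receptor, rose by 1.40, 1.38 and 1.43. RPS4X, an X-linked gene that escapes X inactivation, rose by 1.29, 1.37 and 1.40.

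FAU and RPS27A are made as fusions, FAU with a ubiquitin-like protein and RPS27A with ubiquitin itself. FAU had 188, 180 and 184 CPM in DMSO and 398 to 509 CPM over the 9 libraries of these treatments. Its rises on the TMM scale were 1.30, 1.30 and 1.39 in the same order (SE 0.07 each). RPS27A rose by 1.08, 1.12 and 1.12 (SE 0.10 each), below the median of the members in each comparison.

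In the large subunit, all 46 genes rose with each of dCeMM-2, dCeMM-3 and THZ531 on the TMM scale, with medians of 1.30, 1.35 and 1.37. RPL13A, known also for a role in translational silencing outside the ribosome, had the largest rise of all members in each. It had 561, 540 and 522 CPM in DMSO, 1690, 1650 and 1800 with dCeMM-2, 1660, 1800 and 1610 with dCeMM-3, and 1720, 1730 and 1700 with THZ531. The groups did not overlap with DMSO, and the log2 fold changes were 1.66, 1.64 and 1.67 (SE 0.06 each, adjusted p = 6.1e-25, 2.97e-25 and 4.15e-25). RPL22, a protein with roles in lymphoid development, had 206, 187 and 187 CPM in DMSO and 511 to 609 CPM in the 9 treated libraries, and rose by 1.52, 1.49 and 1.63. RPL39 rose by 1.48, 1.44 and 1.56, and RPL12, a protein at the base of the stalk, by 1.48, 1.61 and 1.58. RPS9 of the small subunit was among the 4 largest with dCeMM-2 at 1.5, and RPL10A with dCeMM-3 at 1.51.

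RPLP0, RPLP1 and RPLP2 form the stalk that recruits translation factors. RPLP1 had 2460, 2580 and 2300 CPM in DMSO, 6850, 6190 and 6570 with dCeMM-2, 6280, 6980 and 5620 with dCeMM-3 and 6750, 6350 and 6540 with THZ531. It thus stood above 5600 CPM in all 9 treated libraries and below 2600 CPM in DMSO, and rose by 1.42, 1.36 and 1.42 on the TMM scale (SE 0.07 each). RPLP0 rose by 1.36, 1.33 and 1.45 and RPLP2 by 1.42, 1.39 and 1.47.

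RPL5 and RPL11 join 5S RNA in a particle that, outside the ribosome, binds the p53 ligase MDM2. RPL11 had 1410, 1310 and 1290 CPM in DMSO, 3500, 3350 and 3510 with dCeMM-2, 3830, 4110 and 3430 with dCeMM-3 and 3820, 3730 and 3810 with THZ531. It rose by 1.37, 1.5 and 1.5 (SE 0.06 each) and RPL5 by 1.27, 1.23 and 1.35 on the TMM scale. RPL3, which reaches into the peptidyl transferase centre, rose by 1.43, 1.5 and 1.52, and RPL10, which joins late in the maturation of the subunit, by 1.33, 1.37 and 1.40. RPL41, the shortest of the proteins, rose by 1.31, 1.16 and 1.33.

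RPS26 stood apart from the other members. It had 7.4, 10.2 and 9.01 CPM in DMSO, 11, 8.9 and 11.7 with dCeMM-2, 12.2, 9.43 and 13.1 with dCeMM-3 and 7.88, 9.65 and 6.86 with THZ531. The treated libraries overlapped with DMSO in each case. Its log2 fold change was -0.13 with THZ531 (SE 0.16, adjusted p = 0.432), 0.23 with dCeMM-2 (SE 0.15, adjusted p = 0.156) and 0.40 with dCeMM-3 (SE 0.15, adjusted p = 0.0135). The call with dCeMM-3 was lost without DMSO replicate 1 (0.23, adjusted p = 0.199), without dCeMM-3 replicate 1 (0.35, adjusted p = 0.0603) and without dCeMM-3 replicate 3 (0.29, adjusted p = 0.0993), and with dCeMM-2 it was gained without DMSO replicate 2 (0.40, adjusted p = 0.0428). These values rest on 371 counts in the 3 DMSO libraries together and 293 with THZ531. RPS26 lies on chromosome 12 (56041351 to 56044697, plus strand) opposite AC034102.3. The sources used here do not give the strand setting. Whether reads of either gene in the overlap were counted for RPS26 or left out as matching both is therefore not known.

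After RPS26, the smallest rises were those of members with low counts. With THZ531 RPL7 rose by 0.69 (SE 0.12), RPL21 by 0.80 (SE 0.11) and RPL9 by 0.96 (SE 0.07). RPL7 had 9.83, 9.71 and 10.9 CPM in DMSO and 16.9, 13.3 and 17.8 with THZ531, and RPL9 had 52.2, 47.7 and 52.5 against 103, 94 and 97.6. With dCeMM-2 the smallest rises were those of RPL7 (0.71), RPL36A (0.88) and RPL9 (0.91), and with dCeMM-3 those of RPL21 (0.83), RPL7 (0.85) and RPS3A (0.88). The 7 members with a mean under 100 CPM over all libraries had medians of 0.91, 0.88 and 0.96 with dCeMM-2, dCeMM-3 and THZ531, and the other 71 had 1.32, 1.35 and 1.38. RPS28, the member with the lowest level, had 3.53, 5.01 and 3.83 CPM in DMSO and 12.2, 11.5 and 13.2 with dCeMM-3, a rise of 1.54 (SE 0.15). Its rise was 1.39 with THZ531 and 1.12 with dCeMM-2, below the median of the members in the last. Of the 7, RPL7, RPL21, RPL9 and RPS3A have under 50% of 50-base stretches of their own, and the part of reads from their copies in these smaller rises was not tested.

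**Figure D3:**
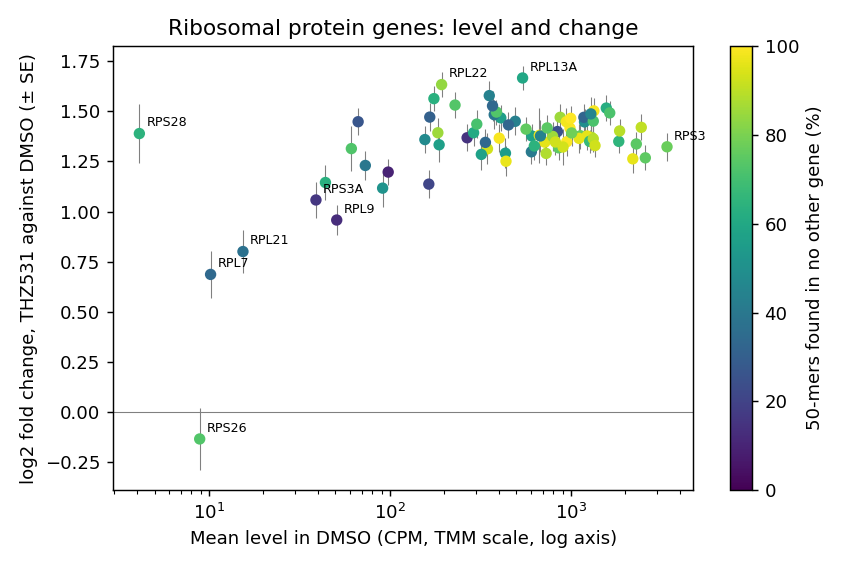
Mean level of each ribosomal protein gene in DMSO (CPM on the TMM scale, log axis) against its log2 fold change with THZ531 (TMM scale, bars show SE), coloured by the share of 50-base stretches of its mRNA that occur in no other gene or pseudogene. Most members form a narrow band near 1.38 at all levels above 100 CPM; RPS26, RPL7, RPL21 and RPL9 lie below it at low levels, and RPS28, the lowest in level, lies within it. On the spike-in scale the same comparison has a median of -0.47.

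The size of the change differed little with other features of the genes. The 31 members with at least 75% of 50-base stretches of their own had TMM-scale medians of 1.31, 1.36 and 1.37 for dCeMM-2, dCeMM-3 and THZ531, and the 23 members with under 50% had 1.33, 1.35 and 1.38. The 47 members with the pyrimidine run at the start had medians of 1.33, 1.35 and 1.38, and the 16 with an entry but no such run, RPS26 and RPS28 among them, had 1.29, 1.29 and 1.33. The 28 genes that hold a small nucleolar RNA within an intron or exon had 1.33, 1.36 and 1.38, and the other 50 had 1.30, 1.33 and 1.37. The 17 members with a transcript under 600 bases had 1.35, 1.32 and 1.42, and the 26 with 1000 bases or more had 1.30, 1.36 and 1.37. The classes by transcript length and by stretches of their own rest on the gene model used. It may differ from the mRNA made in these cells.

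Genes outside the group with both a short transcript and a short span also rose on the TMM scale, by less. The 378 protein-coding genes that are not members, with a transcript under 1000 bases and a span under 10 kb, had median log2 fold changes of 0.82, 0.82 and 0.83 on the TMM scale for dCeMM-2, dCeMM-3 and THZ531, with quartiles of 0.36 and 1.14, 0.27 and 1.22, and 0.17 and 1.17. The 567 genes that are not members but had at least 238 CPM in DMSO, the lower quartile of the members, had medians of 0.13, -0.12 and 0.14. The medians of the members, 1.31, 1.34 and 1.38, lay above the upper quartile of the 378 genes. A short span alone did not go with a like rise: the 2250 non-members with a span under 10 kb had medians of 0.09, -0.233 and -0.145. The 705 non-members with a transcript under 1000 bases had 0.724, 0.738 and 0.695. On the spike-in scale the 378 genes had medians of -0.949, -0.995 and -1.01.

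When libraries were scaled by their spike-in counts, ribosomal protein mRNAs were lower and not higher with dCeMM-2, dCeMM-3 and THZ531, though less so than most genes. The protocol gives global differences in RNA output as the reason for the spike-in, but not whether its quantity was set by the number of cells or by the RNA obtained. Fewer cells and less RNA per cell cannot be told apart in such bulk samples. The 78 genes together had 33.7, 39.6 and 38.4 counts per spike-in count in the DMSO libraries. They had 25.4, 31.1 and 24.3 with dCeMM-2, 26.9, 24.5 and 28.7 with dCeMM-3 and 32.9, 24 and 24.5 with THZ531. All 9 of these libraries lay below all DMSO libraries, THZ531 replicate 1 by the smallest margin. The means were 37.2 ± 3.12 in DMSO and 26.9 ± 3.64, 26.7 ± 2.12 and 27.1 ± 4.95 with the treatments (SD, n = 3; exact permutation p = 0.1 each, the smallest possible), or 0.724, 0.717 and 0.729 of DMSO. With dCeMM-1 the ratio was 38.8 ± 3.44 (exact p = 0.6), and with dCeMM-4 35.3 ± 7.03 (exact p = 0.8).

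Gene by gene, 63 of 78 members fell with dCeMM-2 on the spike-in scale (83% of all genes tested were lower), 66 with dCeMM-3 (83.7%) and 57 with THZ531 (84.7%), and 0 rose. The share of members that fell was thus near the background with dCeMM-2 and dCeMM-3 and below it with THZ531. The median log2 fold changes were -0.47, -0.50 and -0.47, against -1.80, -1.96 and -1.94 over all genes tested. These counts depended on single libraries. That of dCeMM-2 was 33 without DMSO replicate 2, 35 without DMSO replicate 3, 27 without dCeMM-2 replicate 1 and 22 without dCeMM-2 replicate 3. That of dCeMM-3 was 39 without DMSO replicate 2, 43 without DMSO replicate 3 and 39 without dCeMM-3 replicate 2. That of THZ531 was 26 without DMSO replicate 2, 36 without DMSO replicate 3, 17 without THZ531 replicate 2 and 21 without THZ531 replicate 3.

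RPL13A and RPL22, which had large rises on the TMM scale, did not pass the threshold on the spike-in scale. RPL13A had spike-scaled values of 968, 1160 and 1130 in DMSO and 1140, 868 and 862 with THZ531, with overlapping groups and a value of -0.18 (adjusted p = 0.375). RPS6 had 4260, 4820 and 4730 in DMSO and 4110, 2810 and 2850 with THZ531; all 3 treated libraries were lower, with a change of -0.50 (adjusted p = 0.00952). RPS26 had 12.8, 22 and 19.4 in DMSO and 5.22, 4.85 and 3.48 with THZ531. It fell by 1.99 on the log2 scale with THZ531 (adjusted p = 9.23e-15), beside a median of -1.94 over all genes tested. Its values were -1.56 with dCeMM-2 and -1.42 with dCeMM-3.

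With dCeMM-4 the ribosomal protein mRNAs rose by a smaller amount relative to other genes, and no member passed the test on the spike-in scale. On the TMM scale 78 of 78 members were higher and 0 lower (32.9% and 35.3% of all genes tested), with a median of 0.49 against 0.01 over all genes, a range of 0.21 to 0.78, and no rise of 2-fold. The small subunit had a median of 0.50 and the large subunit 0.49. The 378 genes outside the group that are short in both transcript and span had a median of 0.21 with dCeMM-4 (quartiles -0.15 and 0.53), and 44.2% were higher. The 567 genes outside it with at least 238 CPM in DMSO had 0.27 (quartiles -0.11 and 0.52), and 58.2% were higher. The median of the members, 0.49, thus lay below the upper quartile of both sets. Scaled by spike-in counts, 0 members were higher (6.3% of all genes) and 0 lower (48%), with a median of -0.07 against -0.56 over all genes tested; without dCeMM-4 replicate 2, 2 members were lower. The ribosomal protein counts per spike-in count were 27.8, 41.8 and 36.3, a wider spread than in any other group.

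The largest rises with dCeMM-4 were those of RPS7, RPL21, RPL7 and RPS28. RPL21, RPL7 and RPS28 had low mean levels in DMSO, 15.4, 10.2 and 4.12 CPM. RPS7, RPL21 and RPL7 have 39.8%, 37.3% and 33.8% of 50-base stretches of their own. This order thus rests on members whose levels are uncertain. RPS7, a small subunit protein that also binds MDM2, had 79.1, 67 and 73.2 CPM in DMSO and 134, 124 and 117 with dCeMM-4, a rise of 0.78 on the TMM scale (SE 0.07, adjusted p = 4.36e-12). RPL21 rose by 0.77 (SE 0.10), RPL7 by 0.76 (SE 0.11) and RPS28 by 0.75 (SE 0.15). RPL7 had 18.5, 16.7 and 15.5 CPM with dCeMM-4, all above its DMSO libraries. The smallest rises were those of RPL36A (0.21, adjusted p = 0.0287), RPL23 (0.25), RPL23A (0.26, adjusted p = 0.0387) and RPL6 (0.28). The calls for RPL36A and RPL23A were lost without DMSO replicate 1 (adjusted p = 0.136 and 0.0884), DMSO replicate 2 (0.0671 and 0.171), dCeMM-4 replicate 1 (0.0787 and 0.133) and dCeMM-4 replicate 2 (0.179 and 0.184).

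The members described above by their function also rose with dCeMM-4. RPS6 had 3180, 3180 and 2900 CPM and rose by 0.43 (SE 0.06, adjusted p = 9.03e-08) on the TMM scale, with no overlap with DMSO. RPSA rose by 0.59, RPS14 by 0.46, RPS19 by 0.44, RPS4X by 0.47, RPS27A by 0.43 and FAU by 0.51. The stalk genes RPLP0, RPLP1 and RPLP2 rose by 0.57, 0.58 and 0.51, RPL5 and RPL11 by 0.59 and 0.54, RPL3 by 0.57, RPL10 by 0.45, RPL22 by 0.72 and RPL41 by 0.55. RPL13A had 854, 830 and 887 CPM and rose by 0.66 (SE 0.06). RPS26 had 13, 10.3 and 12.1 CPM and rose by 0.41 on the TMM scale (SE 0.14, adjusted p = 0.0104).

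With dCeMM-1 the group as a whole had a median log2 fold change of 0.00, against 0.03 over all genes tested. On the TMM scale 2 members were higher (16.5% of all genes tested) and 0 lower (14.8%). RPL22 had 234, 209 and 223 CPM, all above the 206, 187 and 187 of DMSO, and a rise of 0.20 on the log2 scale (SE 0.06, adjusted p = 0.0142). RPL13A had 619, 611 and 590 CPM, all above the 561, 540 and 522 of DMSO, with 0.17 (SE 0.06, adjusted p = 0.0256). Both calls rest on single libraries. RPL22 no longer passed when replicate 2 or 3 of DMSO or replicate 1 of dCeMM-1 was left out (adjusted p = 0.0833, 0.0641 and 0.0986). RPL13A no longer passed without any one of these (0.0678, 0.111 and 0.0922) or without replicate 2 of dCeMM-1 (0.0745). Leaving out replicate 2 or 3 of DMSO, or replicate 1 of dCeMM-1, left 0 members higher, and leaving out dCeMM-1 replicate 2 left 1. Without DMSO replicate 1 the count was 6 higher and 1 lower, RPS26 at -0.47 (adjusted p = 0.0286).

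The other members with dCeMM-1 had log2 fold changes between -0.32 and 0.17 on the TMM scale. RPS28 had 0.17 (SE 0.16) and RPS27 0.14 (SE 0.07), and at the other end RPS26 had -0.32 (SE 0.15, adjusted p = 0.104), RPL23A -0.20 and RPL29 -0.12. RPS6 had 2400, 2320 and 2340 CPM, within the DMSO range, and a change of 0.03 (SE 0.06, adjusted p = 0.731). Among the other genes of known function, RPSA had 0.12, RPLP0, RPLP1 and RPLP2 had 0.04, 0.04 and -0.02, RPL5 and RPL11 had 0.01 and -0.02, RPL3 had -0.01, RPL10 0.01, RPL41 -0.02, RPS14 -0.02, RPS19 -0.01, RPS4X 0.01, RPS27A -0.05 and FAU -0.04. Scaled by spike-in counts, 0 members were higher (2.83% of all genes) and 0 lower (1.34%).

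The 3 compounds known as cyclin K degraders were given at the same multiple of their EC50 and can be compared with each other. Between dCeMM-2 and dCeMM-3 few members passed the test. On the TMM scale 1 was higher with dCeMM-2 (26.6% of all genes tested) and 1 lower (16.5%). RPS28 had 10.1, 8.98 and 8.17 CPM with dCeMM-2 and 12.2, 11.5 and 13.2 with dCeMM-3, a difference of -0.42 (95% interval -0.71 to -0.14, adjusted p = 0.00748). RPS7 had 167, 169 and 186 against 149, 153 and 160 CPM, a difference of 0.17 (0.02 to 0.32, adjusted p = 0.0463). RPS3A had 0.20 (0.01 to 0.39), RPL41 0.15 (-0.03 to 0.33), RPL23 -0.15 (-0.30 to -0.01) and RPS26 -0.16 (-0.48 to 0.16), and none of these passed. For 77 of 78 members the 95% interval of the difference lay within 0.5 of 0 on the log2 TMM scale, and for 54 of 78 on the spike-in scale, where the intervals reached from -0.93 to 0.70. The counts turned on the setting: 15 members were lower with DESeq2 size factors, and 12 without dCeMM-3 replicate 3. The count of members higher was 0 without dCeMM-2 replicate 3 or dCeMM-3 replicate 1, and 2 without any of the DMSO replicates 1, 2 and 3, dCeMM-2 replicate 1, dCeMM-3 replicates 2 and 3 or dCeMM-4 replicate 1. By spike-in scaling 0 were higher (18.4%) and 0 lower (4.32%).

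Against dCeMM-4 both compounds gave higher levels on the TMM scale. With dCeMM-2, 75 members were higher than with dCeMM-4 (38.4% of all genes tested) and 0 lower (38.9%), with a median difference of 0.81. With dCeMM-3, 75 were higher (41.5%) and 0 lower (41.2%), with a median of 0.82. RPL13A was 1.00 higher with dCeMM-2 than with dCeMM-4 (95% interval 0.88 to 1.13), RPL23A 0.99 and RPS2, a protein of the decoding region, 0.97. RPL28 was 1.07 higher with dCeMM-3 than with dCeMM-4 (0.92 to 1.22), RPL12 1.06 and RPL23 1.05. The members that did not pass in these comparisons were RPS26, RPL7 and RPL21. Their differences were -0.18 (-0.48 to 0.13), -0.05 (-0.29 to 0.18) and 0.15 (-0.06 to 0.36) for dCeMM-2, and -0.01 (-0.31 to 0.28), 0.09 (-0.14 to 0.32) and 0.06 (-0.15 to 0.27) for dCeMM-3.

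The direction between these compounds was the opposite when spike-in counts set the scale, with 36 members lower with dCeMM-2 than with dCeMM-4 (66.8% of all genes tested) and 46 lower with dCeMM-3 (65.3%), and 0 higher in either (2.63% and 5.35%). Both counts depended on single libraries. For dCeMM-2 the count was 11, 67 and 9 without dCeMM-2 replicates 1, 2 and 3, and 76, 6 and 18 without dCeMM-4 replicates 1, 2 and 3. For dCeMM-3 it was 23 and 19 without dCeMM-3 replicates 1 and 2, and 72, 12 and 24 without dCeMM-4 replicates 1, 2 and 3. THZ531 was given at a fixed concentration that is not matched to the others, so its values stand beside them with no test of the difference.

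Several members have a paralogue, a second gene for a like protein, that the choice of members left out. RPL22L1, which can take the place of RPL22 in the ribosome, rose by amounts near those of RPL22 with dCeMM-2, dCeMM-3 and THZ531 on the TMM scale. It had 84.2, 63.4 and 71.9 CPM in DMSO and 202, 206 and 199 with THZ531. Its log2 fold changes were 1.46 with dCeMM-2, 1.51 with dCeMM-3, 0.45 with dCeMM-4 and 1.47 with THZ531 (SE 0.12 each) on the TMM scale, and the change with dCeMM-1 was 0.00 (adjusted p = 0.987). Its spike-in scale values were -0.31, -0.28, -0.13 and -0.37.

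RPL7L1, a nucleolar protein of large subunit assembly, went the other way. It had 131, 113 and 105 CPM in DMSO, 32.3, 33 and 29.5 with dCeMM-2, 49.6, 45.2 and 47.1 with dCeMM-3, 63, 62.1 and 69 with dCeMM-4 and 41.2, 40.3 and 40.1 with THZ531. It fell in every comparison with DMSO on the TMM scale, with log2 fold changes of -1.88, -1.30, -0.85 and -1.53 in that order and of -0.25 with dCeMM-1 (SE 0.07, adjusted p = 0.00838). Scaled by spike-in counts it fell with dCeMM-2, dCeMM-3, dCeMM-4 and THZ531 (-3.65, -3.11, -1.40 and -3.36), and had -0.17 with dCeMM-1 (adjusted p = 0.781). RPS27L, a paralogue of RPS27 known as a p53 target, rose with THZ531 on the TMM scale (on the spike-in scale it had -1.06), from 162, 132 and 137 CPM in DMSO to 245, 246 and 245 (0.77, SE 0.07). It fell with dCeMM-3, to 95.7, 95.1 and 89.5 CPM (-0.63, SE 0.08), rose with dCeMM-4 (0.26, adjusted p = 0.00172), and had 0.12 with dCeMM-2 (adjusted p = 0.125).

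RPL39L, known from the testis, rose on the TMM scale with dCeMM-2 (0.54) and dCeMM-3 (0.65), where its spike-in scale values were -1.23 and -1.15, and fell with dCeMM-4 (-0.39) and THZ531 (-0.27, adjusted p = 0.0204). RPL36AL and RPL26L1 passed in no comparison with DMSO on the TMM scale, with values between -0.15 and 0.10 and between -0.20 and 0.20. RPL10L was under 1 CPM in all libraries, with a log2 fold change of 1.28 with THZ531 (adjusted p = 0.0429), and RPL3L, a muscle gene, was too low to be tested. Its 3 DMSO libraries were at 0 and its highest value was 0.566 CPM.

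**Figure D4:**
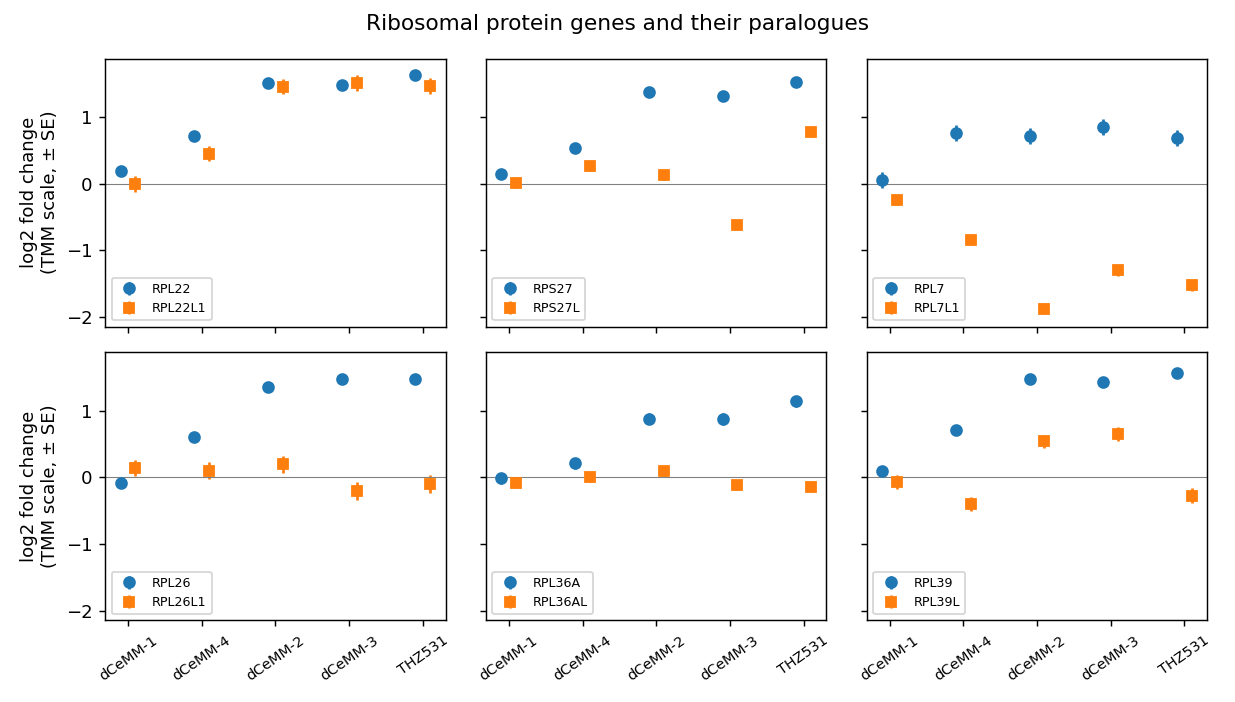
Log2 fold changes against DMSO on the TMM scale (points, bars show SE) of 6 ribosomal protein genes (circles) and their paralogues (squares) in 5 comparisons. RPL22L1 lies near RPL22 with dCeMM-2, dCeMM-3 and THZ531, RPL7L1 lies below 0 in each comparison with DMSO while RPL7 lies above 0, and RPS27L has 0.77 with THZ531 and -0.63 with dCeMM-3. On the spike-in scale the rises of dCeMM-2, dCeMM-3 and THZ531 lie below 0.

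Other genes known for TOP mRNAs, mostly translation factors, had medians close to those of the members, with some genes well below. Of 20 such genes, 19 were tested (EEF1G was not). On the TMM scale 19 rose with dCeMM-2, 19 with dCeMM-3, 18 with dCeMM-4 and 19 with THZ531, with medians of 1.30, 1.25, 0.49 and 1.34. The shares of all genes tested that were higher were 37.1%, 35.9%, 32.9% and 35.8%. TPT1, a translationally controlled protein, had 3850, 3530 and 3490 CPM in DMSO and 10100, 9300 and 9330 with THZ531, a rise of 1.41 (SE 0.06). EEF1A1, the elongation factor that delivers tRNA, had 761, 742 and 651 CPM in DMSO and 2010, 1850 and 1840 with THZ531, and rose by 1.41 with dCeMM-2 and 1.37 with dCeMM-3. NPM1, a nucleolar chaperone, rose less with dCeMM-2 (0.78), dCeMM-3 (0.25) and THZ531 (0.53), as did the initiation factor EIF4B with dCeMM-3 (0.70), and EIF3K was the gene that did not pass with dCeMM-4 (0.02, adjusted p = 0.816). NAP1L1, a histone chaperone, rose by 1.44 with dCeMM-2, 0.61 with dCeMM-4 and 1.5 with THZ531. With dCeMM-1, NAP1L1 was higher (0.16, adjusted p = 0.0366) and EIF3K lower (-0.19, adjusted p = 0.0403). On the spike-in scale 12, 18 and 17 of the 19 fell with dCeMM-2, dCeMM-3 and THZ531 and 1 with dCeMM-4. The shares of all genes lower were 83%, 83.7%, 84.7% and 48%. The medians of the 19 were -0.49, -0.59, -0.52 and -0.08.

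Genes listed as chaperones that bind ribosomal proteins before assembly, not all of them dedicated to this, moved in both directions. Of 8 tested, 4 fell and 1 rose with dCeMM-2, 6 fell and 1 rose with dCeMM-3, 4 fell and 3 rose with dCeMM-4, 5 fell and 1 rose with THZ531 and 5 fell with dCeMM-1 on the TMM scale. Over all genes tested, the shares lower in these comparisons were 41.2%, 45.1%, 35.3%, 43.7% and 14.8%, so that 4 of 8 is near the background with dCeMM-2. GRWD1, the chaperone of RPL3, had 102, 101 and 92.6 CPM in DMSO, 15.7, 15.5 and 14.9 with dCeMM-2, 6.05, 6.12 and 7.79 with dCeMM-3, 78.2, 84.4 and 72.8 with dCeMM-4 and 10.1, 14.6 and 14.4 with THZ531. Its log2 fold changes were -2.68, -3.90, -0.34 and -2.93 in that order (SE 0.10, 0.11, 0.08 and 0.10). PDCD2L had -2.62, -3.58 and -3.20 with dCeMM-2, dCeMM-3 and THZ531, and HEATR3, which serves the 5S particle of RPL5 and RPL11, -1.75, -1.48 and -1.77, all past the threshold. HEATR3 and GRWD1 also fell with dCeMM-1 (-0.73 and -0.48); on the spike-in scale HEATR3 alone of the 8 passed there (-0.68). TSR2, the chaperone of RPS26, was the one that rose with dCeMM-2, dCeMM-3 and THZ531, by 0.65, 1.02 and 0.84 (SE 0.08 each), from 43.3, 40.1 and 39.9 CPM in DMSO to 74, 73.3 and 73.5 with THZ531. With spike-in scaling all 8 fell with dCeMM-2, dCeMM-3 and THZ531, near the background of 83%, 83.7% and 84.7% of all genes, TSR2 with -1.12, -0.80 and -1.0.

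Genes for regulators of TOP mRNAs or of ribosomal protein gene transcription mostly fell. Of 9 tested, 8 fell with each of dCeMM-2, dCeMM-3 and THZ531 and 5 with dCeMM-4 on the TMM scale, with medians of -1.35, -1.58, -1.20 and -0.41. The shares of all genes lower were 41.2%, 45.1%, 43.7% and 35.3%. RPTOR, the scaffold of mTOR complex 1, had 58.9, 69.3 and 63.2 CPM in DMSO and 19.7, 19.1 and 17 with dCeMM-2, 10.5, 9.95 and 9.93 with dCeMM-3, and 16.8, 20.6 and 20 with THZ531, a fall in each (-1.77, -2.65 and -1.74). TBP, the TATA-binding protein, fell too (-1.85, -2.35 and -2.40). LARP1, which binds the TOP tract, fell with dCeMM-3 (-1.58) and THZ531 (-1.20), and with dCeMM-1 (-0.49, SE 0.07, adjusted p = 4.39e-07), but rose with dCeMM-4 (0.45). With dCeMM-4 the transcription factors ZBTB11 and GABPA rose on the TMM scale (0.78 and 0.83) and RPS6KA1 fell (-0.85). Scaled by spike-in counts all 9 fell with dCeMM-2, dCeMM-3 and THZ531, where 83%, 83.7% and 84.7% of all genes fell. With dCeMM-4, 6 fell, where 48% of all genes fell, and LARP1, ZBTB11 and GABPA had -0.10, 0.21 and 0.27.

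**Figure D5:**
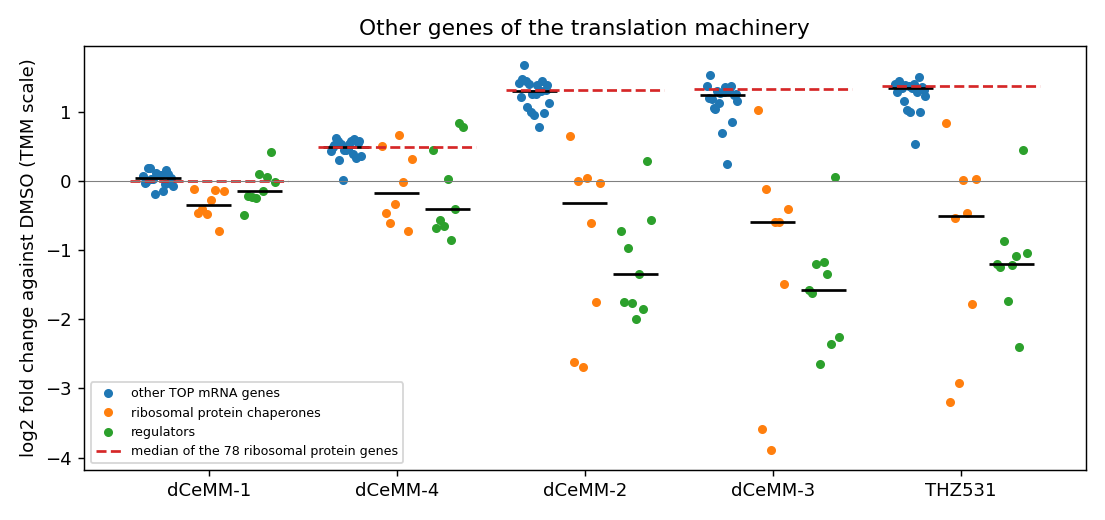
Log2 fold changes against DMSO on the TMM scale of 19 other TOP mRNA genes, 8 ribosomal protein chaperones and 9 regulators (points, black bars show each list's median), with the median of the 78 ribosomal protein genes (red dashes). The medians of the TOP mRNA genes lie close to those of the ribosomal protein genes in all 5 comparisons, and those of the chaperones and regulators lie below 0; on the spike-in scale the medians of the TOP mRNA genes are below 0 as well, other than with dCeMM-1.

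Over the 18 libraries, the genes outside the group whose level followed the mean of the members most closely were EEF1B2 (Pearson r = 0.9987), TPT1 (0.9981), HLA-DQB1 (0.9979), FXYD5 (0.9978) and EIF3H (0.9971), among 9800 candidates. EEF1B2, TPT1 and EIF3H are on the list of TOP mRNA genes, while HLA-DQB1 encodes a class II antigen and FXYD5 an ion transport regulator. These values describe likeness over libraries that fall into groups of high and low levels and share their scaling, and no p is given.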

How the data were processed

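The authors deposited raw read counts per gene, 1 table per library, with no normalization. Per the submitters' processing notes, Trimmomatic 0.32, STAR 2.5.2b, Picard and HTSeq 0.11.2 were used with GRCh38.p7; strand setting, duplicate handling and roles are not given in the sources used here. Each table also holds 92 ERCC and 7 SIRV entries and 5 HTSeq summary counts, which stayed out of library sizes; HTSeq leaves out reads placed at several positions or matching several genes, so members with near-identical copies can be under-counted. Of 58051 identifiers, 57447 matched GENCODE release 29.

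Counts were analysed in R 4.3.3 with edgeR 4.0.16 (filterByExpr by group, 15055 genes; glmQLFit with robust estimation on all 18 libraries, 12 residual degrees of freedom; glmQLFTest) on TMM scaling and again with spike-in counts as library sizes. Adjusted p is Benjamini-Hochberg over all genes tested, threshold 0.05. CPM values are TMM-scaled, and spike-scaled values use library sizes in proportion to the spike-in counts. Shares of counts per library were compared by exact permutation tests. The fit was checked on simulated data. DESeq2 1.42.0, other scalings, no filter, a replicate block and leaving out each library were alternatives, with 2 more added after seeing the data, on subsets of the members. Limma 3.58.1 was loaded by edgeR.

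The members and lists were chosen with earlier results of these data known. Named genes are 16 fixed members, the 4 largest and smallest changes per comparison with DMSO (3 between compounds), up to 4 per other list, the paralogues and the 5 most alike genes; some genes that this rule names are not reported here. Further genes were named after their values were seen.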

Additional observations from a re-analysis of the deposited data

Results flagged for a closer look

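Reads placed at several positions, which no gene count includes, were a larger share of all counted reads than in DMSO (28.3%) with dCeMM-2 (36.0%), dCeMM-3 (41.0%) and THZ531 (37.4%), with all 3 libraries of each group above all DMSO libraries. Reads assigned to annotated ribosomal protein pseudogenes, which are not members, also exceeded their DMSO share of gene counts (0.0515%) with dCeMM-2 (0.106%), dCeMM-3 (0.11%), dCeMM-4 (0.0616%) and THZ531 (0.112%), again in every library. Relative to DMSO the pseudogene share was 2.05, 2.13, 1.2 and 2.17 times as high, beside 2.06, 2.17, 1.21 and 2.13 times for the ribosomal protein genes themselves. Whether these reads come from the members' mRNA was not tested.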

How the results depend on the processing

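The members' median log2 fold change with dCeMM-2, dCeMM-3, dCeMM-4 and THZ531 kept its sign on the TMM scale under every alternative run; the dCeMM-1 median, 0.00, ran from -0.03 to 0.03. The counts of ribosomal protein genes higher on the TMM scale with dCeMM-2, dCeMM-3, dCeMM-4 and THZ531 stayed within 1.5 times of their value in all of them, and so did the medians over the 31 members with at least 75% of stretches of their own and the 71 with a mean of at least 100 CPM, both subsets chosen after seeing the data. DESeq2 size factors moved the median log2 fold change to 1.39, 1.5, 0.61 and 1.53 in that order, as did DESeq2's own test (1.39, 1.5, 0.61 and 1.53). Without a filter on low counts it was 1.24 with dCeMM-2 and 1.30 with THZ531. Leaving out single libraries gave 1.33 to 1.39 with THZ531. Without mitochondrially encoded genes in the denominator, the rise in the share of counts was 7.71, 9.59, 1.58 and 8.68 percentage points. With dCeMM-1 the count higher was 1 with DESeq2 size factors, 0 without a filter, 1 with DESeq2 and 0 to 6 when single libraries were left out, and the count lower 0 to 1. Between dCeMM-2 and dCeMM-3 the count higher was 0 with DESeq2 size factors, with TMM computed without ribosomal protein and mitochondrially encoded genes, without a filter and with DESeq2. The count lower was 15, 2 and 13 with DESeq2 size factors, that TMM and DESeq2. Single libraries gave 0 to 2 higher and 1 to 12 lower.

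On the spike-in scale, leaving out single libraries gave 22 to 74 members lower with dCeMM-2, 39 to 70 with dCeMM-3, 17 to 73 with THZ531 and 0 to 2 with dCeMM-4, 6 to 76 between dCeMM-2 and dCeMM-4 and 12 to 72 between dCeMM-3 and dCeMM-4. The causes were not tested. Single genes were followed through the settings in 234 results, counted per gene, comparison and scale, which leave out many members in each comparison. Among these results alone, 36 calls were gained and 120 lost over all settings, 33 and 97 of them on the spike-in scale. The counts over all members above include further changes. The values of RPS26, RPS28 and RPL7 rest on few counts.

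Whether replicate numbers pair the libraries was not settled by the correlation of deviations from the group means. Over 45 pairs with the same number in different groups it ran from -0.22 to 0.24, with a median of 0.015, and 11 were over 0.1. Over 90 pairs with other numbers it ran from -0.23 to 0.19, with a median of -0.005, and 13 were over 0.1. Of 18 libraries, 10 correlated best with their own number. A fit with the replicate block gave on the TMM scale 2 members higher with dCeMM-1, 77 with dCeMM-2, 78 with dCeMM-3, 78 with dCeMM-4 and 77 with THZ531, and 57, 59 and 52 lower on the spike-in scale with dCeMM-2, dCeMM-3 and THZ531. It changed no count of calls by over 1.5 times.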
